A study of Mus musculus with 3 samples.

Results

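The genes described here encode proteins of the core spliceosome, the machine that removes introns from pre-mRNA, and heterogeneous nuclear ribonucleoproteins (hnRNPs), the proteins that coat new transcripts. They were chosen by name, as symbols that begin with Snrp, Sf3a, Sf3b, Prpf, U2af, Hnrnp or Lsm followed only by letters and digits, and by a level of at least 1 CPM in the control library, where CPM are the unique molecular identifiers (UMIs) of a gene scaled to a common library total. Of 72 symbols with such names, 70 met the minimum, out of 32285 gene identifiers in the files, of which 13454 reached 1 CPM. The 70 genes comprised 12 Snrp, 3 Sf3a, 6 Sf3b, 3 U2af, 13 Prpf, 13 Lsm and 20 Hnrnp genes. The control level thus chose them and is not a finding. The nearest genes inside the limit were Prpf40b at 10.6 CPM and Lsm14b at 17.1 CPM, and the 2 symbols outside it were Lsmem1 at 0.191 CPM and Lsmem2 at 0.219 CPM.

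The cells were the mouse embryonic stem line E14, of 129/Ola background, kept on gelatin in medium with serum and leukaemia inhibitory factor. One library each was made from cells given 10 uM tubercidin for 3 h, from cells given 10 uM tubercidin for 6 h, and from cells given DMSO for 6 h, which served as the control for both times. Tubercidin is an adenosine analogue. RNA was captured at its polyadenylated 3′ end in droplets and counted as UMIs, each standing for 1 captured molecule.

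The control library held 2031 cells, the 3 h library 2365 and the 6 h library 2926, with 24681924 to 104892739 UMIs in cells. Median UMIs per cell were 48452 in DMSO, then 11877 and 8004.5 after 3 h and 6 h of tubercidin, so the treated libraries were shallower and their ratios less precise. Any 2 libraries shared 1 cell barcode and none was shared by all 3. All 10 embryonic stem cell markers were detected in every library, with sums of 4541 CPM (control), 5338 CPM (3 h) and 3988 CPM (6 h). The summed markers of primitive endoderm, trophoblast and fibroblasts lay between 0.963 and 10.1 CPM. With 1 library per group, no difference was tested, and every interval given is an exact 95% interval that covers counting error only.

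As background, the spliceosome assembles on each intron from small nuclear ribonucleoproteins (snRNPs), in which a ring of Sm proteins, or for U6 a ring of LSm proteins, surrounds a small nuclear RNA. U1 binds the start of the intron, U2AF and U2 with its SF3a and SF3b subcomplexes bind the region of the branch point and the intron's end, and the U4/U6.U5 tri-snRNP then joins and is rearranged for catalysis. hnRNPs bind the transcript itself and affect splice site choice, export and stability. The name rule also took in genes outside this core: Lsm1 encodes the subunit that gives the LSm ring its role in cytoplasmic mRNA decay, Lsm10 and Lsm11 belong to the U7 snRNP of histone mRNA processing, and Lsm14a and Lsm14b encode proteins of cytoplasmic mRNA granules.

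The 4 sequences below are upstream stretches of the genes at both ends of the response, Lsm8 and Lsm5 among the lowest ratios and Sf3b3 and Snrpd2 among the highest. They are shown so that the letters before the start of genes that moved apart can be compared. Each was taken from RefSeq (GRCm38.p6), runs 5′ to 3′ on the gene's own strand, and leaves out bases that lie in annotated exons. Capitals mark the motifs that were searched, on both strands: the GC box GGGCGG, the CCAAT box CCAAT, the ETS core CCGGAAG, the YY1 motif AAGATGGCG, the NRF1 motif, the E-box CACGTG and the TATA box TATAAA. The stretches lie at chr6:18848385-18848578 on the plus strand (Lsm8, 194 bases), chr6:56704711-56704949 on the minus strand (Lsm5, 239 bases), chr8:110846813-110847023 on the minus strand (Sf3b3, 211 bases) and chr7:19149588-19149721 on the plus strand (Snrpd2, 134 bases).
Lsm8: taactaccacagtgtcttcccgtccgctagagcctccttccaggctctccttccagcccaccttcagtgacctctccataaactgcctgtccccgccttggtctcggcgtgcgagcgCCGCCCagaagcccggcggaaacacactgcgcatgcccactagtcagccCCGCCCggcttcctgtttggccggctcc
Lsm5: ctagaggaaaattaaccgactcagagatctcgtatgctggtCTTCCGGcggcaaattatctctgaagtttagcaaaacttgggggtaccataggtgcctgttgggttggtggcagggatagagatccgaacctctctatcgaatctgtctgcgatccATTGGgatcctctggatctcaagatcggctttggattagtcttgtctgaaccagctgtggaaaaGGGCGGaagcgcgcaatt
Sf3b3: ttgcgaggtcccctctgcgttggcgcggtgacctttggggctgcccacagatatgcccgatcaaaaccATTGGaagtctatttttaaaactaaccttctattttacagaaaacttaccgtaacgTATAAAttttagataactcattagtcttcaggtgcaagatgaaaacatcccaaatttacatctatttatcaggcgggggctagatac
Snrpd2: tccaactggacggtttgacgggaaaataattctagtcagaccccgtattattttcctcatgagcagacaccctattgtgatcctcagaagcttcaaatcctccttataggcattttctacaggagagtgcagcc
The Lsm8 stretch held 2 GC boxes, the Lsm5 stretch a GC box, a CCAAT box and an ETS core, and the Sf3b3 stretch a CCAAT box and a TATA box. The Snrpd2 stretch held none of these letters, but it is the shortest and ends 116 bases before the start. The others end 56 (Lsm8), 11 (Lsm5) and 9 (Sf3b3) bases before it. Bases nearer the start are not shown, so the stretches do not describe whole promoters.

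Promoter windows of 300 bases, from 250 before to 50 after the start, were given for 58 of the 70 genes, as 78 windows. A GC box stood in 62.8% of these windows, against 35.7% of all 32851 windows and 65.9% of the windows of genes with at least 10 CPM in the control. A CCAAT box stood in 50% of the members' windows, against 37.4% of all and 39.3% of those of genes with at least 10 CPM. The ETS core stood in 25.6%, against 8.86% and 21.2%. The TATA box stood in 6.41% of the members' windows, which lay beside the 6.43% of genes with at least 10 CPM and below the 13.6% of all windows. The YY1 motif, the E-box and the NRF1 motif stood in 5.13%, 14.1% and 0% of the members' windows, and in 3.96%, 10.7% and 2.36% of those of genes with at least 10 CPM. A GC box of either strand can overlap an E-box or an ETS core, and a match describes letters, not binding.

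As a whole the 70 genes made up much the same share of the RNA pool in the 3 libraries. They made up 1.91% of control UMIs and, after treatment, 1.81% (3 h) and 1.96% (6 h). Single genes were compared as the log2 ratio of CPM + 1, and 2-fold was taken as the rule of size. At 3 h no member was 2-fold higher and 3 were 2-fold lower than in the control, or 4.29%, where 0.989% of all genes with at least 1 CPM were 2-fold higher and 6.35% were 2-fold lower. At 6 h no member was 2-fold higher and 4 were 2-fold lower, or 5.71%, against 3.29% and 5.25% of all genes. From 3 h to 6 h no member passed 2-fold either way, against 2.49% of genes higher and 0.193% lower (1.2% and 0.159% of genes with at least 10 CPM). The share of members that were lower was thus near the background in both comparisons with the control. The lower members at 3 h included Lsm8 and Lsm1, and none of the 3 stayed past 2-fold with median-of-ratios or TMM factors, under which Sf3b3 alone was 2-fold higher. The 4 at 6 h, Lsm8, Lsm5, Lsm1 and Sf3b5, stayed past 2-fold with both.

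All 70 members had at least 10 CPM in the control, and among the 8158 genes with that level the backgrounds at 2-fold were 0.441% higher and 6.91% lower at 3 h, and 1.21% higher and 5.75% lower at 6 h. The median log2 ratio of the members was −0.20 at 3 h and −0.02 at 6 h, beside −0.31 and −0.16 for those 8158 genes. The standard deviation across members was 0.45 at 3 h and 0.47 at 6 h, beside 0.48 and 0.52 across the 8158 genes. The members therefore had a spread much like that of other genes of such levels, with a median somewhat closer to 0. Scaling by median-of-ratios factors placed the median gene 0.21 higher at 3 h and 0.01 higher at 6 h, and with it the members' median was 0.04 at 3 h. Relative to the median gene, 42 of 70 members lay above it at 3 h and 41 at 6 h.

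**Figure D1:**
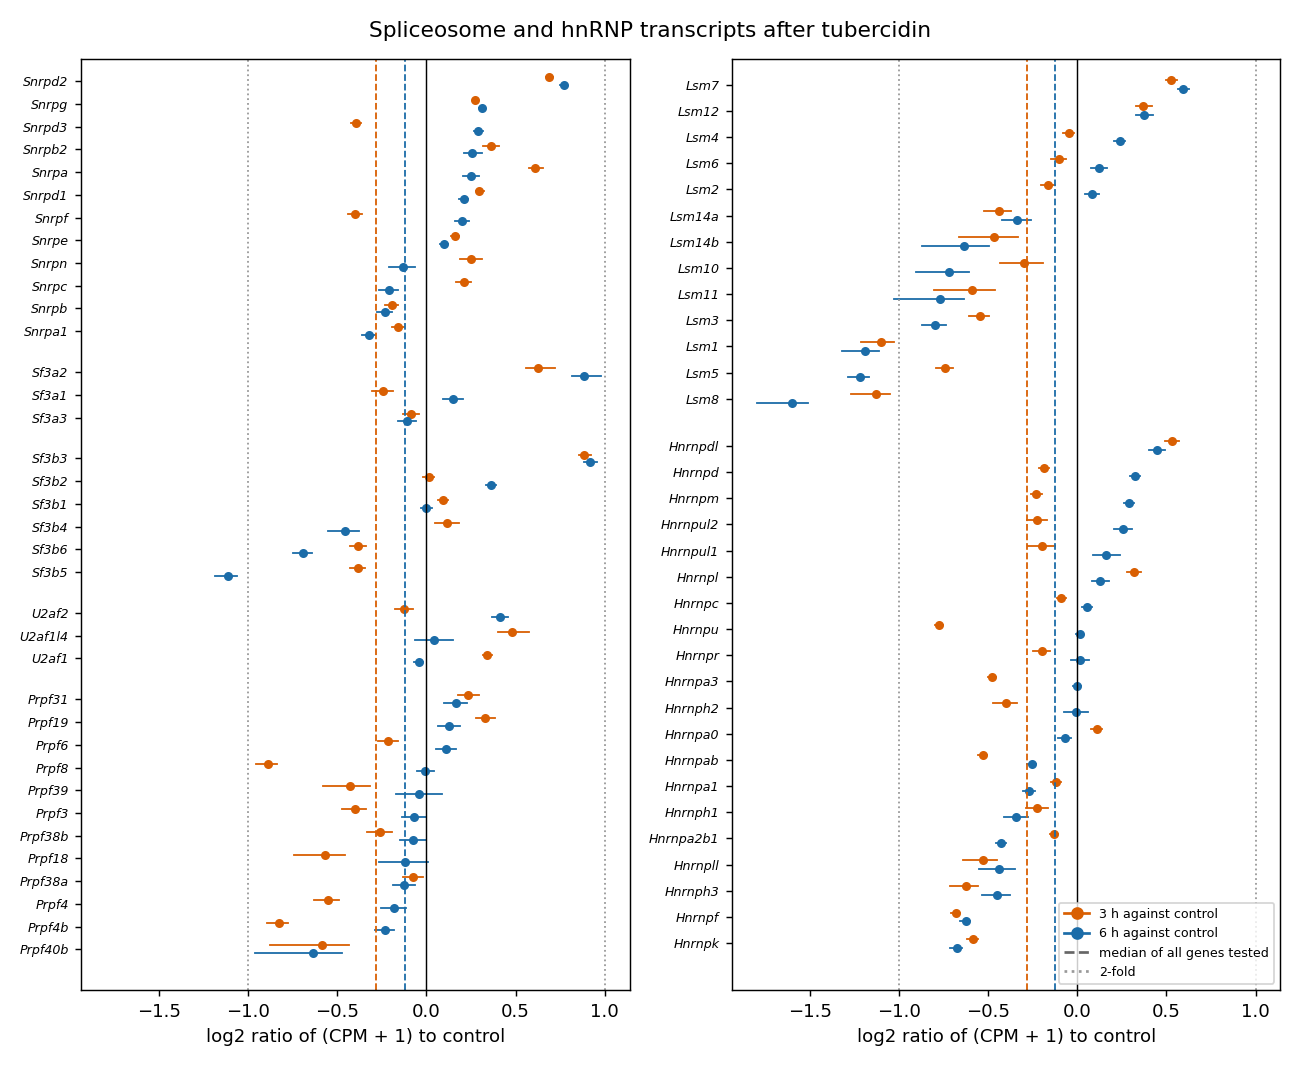
Each row is one of the members described here, grouped by name family, and the x axis gives the log2 ratio of CPM + 1 against the control for the 3 h and the 6 h library, with bars for 95% counting intervals, dashed lines at the medians of all genes with at least 1 CPM and dotted lines at 2-fold. Sf3b3 has the highest ratio at both times (0.89 and 0.92) and Lsm8 the lowest (−1.13 and −1.60), and most Prpf genes lie left of 0 at 3 h.

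**Figure D2:**
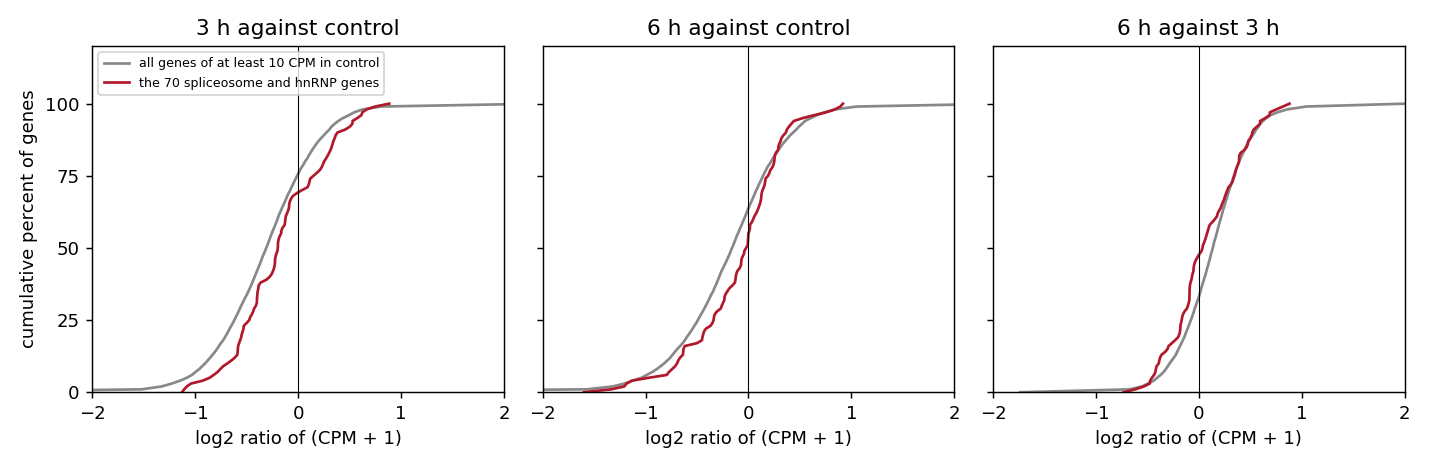
The curves give the cumulative percent of genes against the log2 ratio for each comparison, for the members and for all genes with at least 10 CPM in the control. The members' curves run beside those of all genes, with medians of −0.20 against −0.31 at 3 h and −0.02 against −0.16 at 6 h.

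The Sm proteins form the ring of the U1, U2, U4 and U5 snRNPs, and their transcripts did not shift as 1 unit. Snrpd2, whose gene lies at chr7:19149722-19153542 of mm10, stood at 644, 1038 and 1098 CPM in the control, the 3 h and the 6 h library, the order in which CPM are given throughout. Both treated libraries were higher, by 0.69 (counting interval 0.67 to 0.71) and 0.77 (0.75 to 0.79) on the log2 scale. Snrpg stood at 1515, 1832 and 1880 CPM, Snrpd1 at 591, 727 and 684 CPM, and Snrpe at 738, 825 and 789 CPM, so each of these ring genes was also higher at both times. Their log2 ratios at 6 h were 0.31, 0.21 and 0.10. Snrpb stood at 298, 261 and 253 CPM and was lower at both times in CPM, by −0.19 and −0.23, though at 3 h its ratio turned to 0.05 under median-of-ratios factors.

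A second pattern was seen in Snrpd3 and Snrpf, which were lower at 3 h and higher at 6 h. Snrpd3 stood at 507, 386 and 621 CPM. Snrpf, at 264, 200 and 303 CPM, followed the same order of libraries. From 3 h to 6 h their log2 ratios were 0.69 (0.65 to 0.72) and 0.60 (0.55 to 0.65) in CPM, past 1.5-fold, and with median-of-ratios factors 0.46 and 0.37, short of it. With those factors Snrpc (−0.64), Snrpn (−0.61) and Snrpa (−0.59) were instead 1.5-fold lower. A ratio between 2 genes of 1 library does not depend on how the library was scaled. Snrpd2 gained 2.13-fold on Snrpf at 3 h and 2.01-fold on Snrpb at 6 h, the highest against the lowest of the 7 ring genes. The log2 ratio of the 12 Snrp genes summed was 0.21 (0.20 to 0.22) at 3 h, then 0.25 (0.24 to 0.26), and 8 of 12 were higher at each time, where 27.5% and 40.2% of all genes with at least 1 CPM had a ratio above 0.

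Among proteins of single snRNPs, Snrpa, a U1 protein that binds its RNA directly, stood at 167, 255 and 199 CPM, with log2 ratios of 0.61 at 3 h and 0.25 at 6 h. Snrpc, another U1 protein, stood at 164, 189 and 141 CPM, on opposite sides of the control at the 2 times. The U2 proteins differed from each other: Snrpb2 was higher at both times (141, 181 and 169 CPM), while Snrpa1 was lower at 6 h (336, 300 and 268 CPM, log2 ratio −0.32). Snrpn, the Sm variant of an imprinted locus, stood at 82.3, 97.9 and 74.9 CPM, and its exons overlap those of Snurf on the same strand, so its UMIs may be shared between them.

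The SF3b subcomplex, which holds the branch point within U2, held subunits with ratios on both sides of the control. Sf3b3 stood at 182, 337 and 345 CPM, with log2 ratios of 0.89 (0.85 to 0.92) and 0.92 (0.88 to 0.96), the highest of all members at both times. Sf3b5, a small subunit, went the other way, at 222, 170 and 102 CPM. Its log2 ratio was −0.38 at 3 h and −1.11 (−1.18 to −1.06) at 6 h, so it was 2.17-fold lower at 6 h, and from 3 h to 6 h its log2 ratio was −0.73 in CPM and −0.96 with median-of-ratios factors. Sf3b6, a further subunit, was lower at both times as well, at 210, 161 and 130 CPM. Sf3b3 gained on Sf3b5 by 2.42-fold at 3 h and 4.12-fold at 6 h.

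The other SF3b subunits moved little or late. Sf3b1, the large scaffold, stood at 441, 470 and 441 CPM, and its log2 ratio at 6 h was −0.00 (−0.03 to 0.03). Sf3b2 stood at 411, 415 and 529 CPM, with log2 ratios of 0.01 at 3 h, or 0.25 with median-of-ratios factors, and 0.36 at 6 h. Sf3b4 stood at 70.8, 76.7 and 51.4 CPM, with a log2 ratio of −0.45 at 6 h. As a sum the 6 genes moved by 0.08 at 3 h and 0.06 at 6 h, so the opposed subunits nearly cancelled in UMIs.

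**Figure D3:**
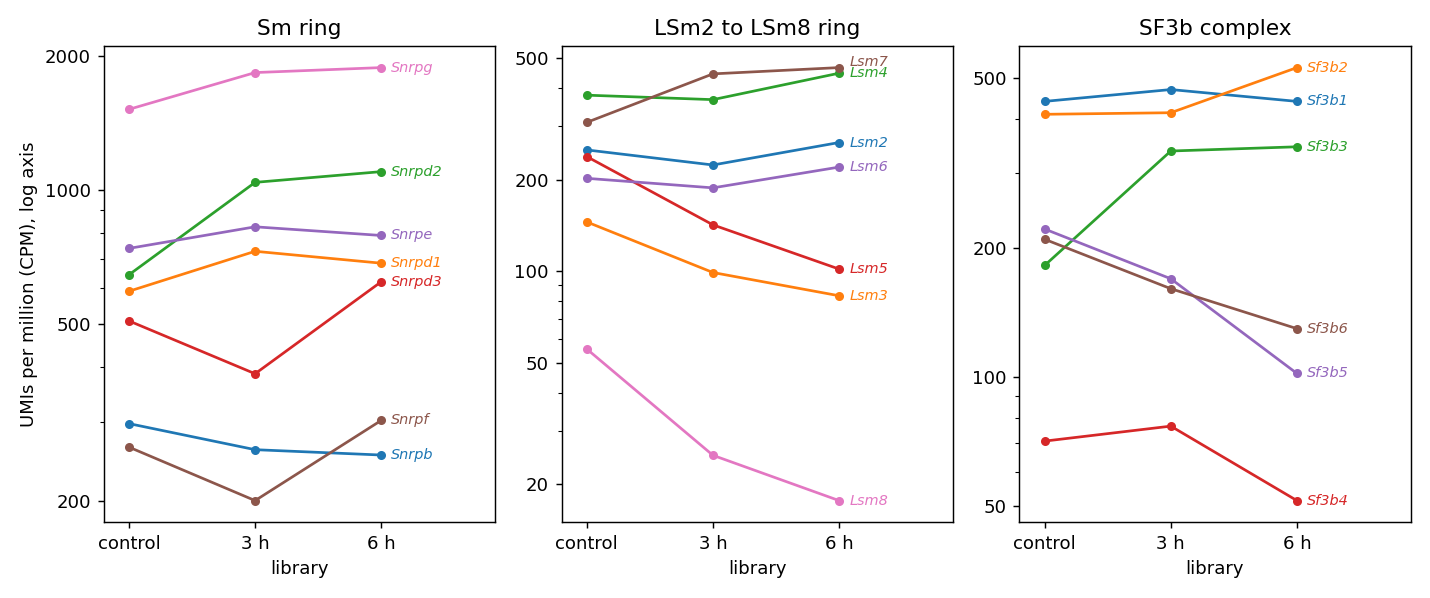
The 3 panels give CPM on a log axis for the subunits of the Sm ring, the LSm2 to LSm8 ring of U6 and the SF3b complex in the 3 libraries, with lines joining the values of 1 gene. Lsm8 runs from 55.6 to 17.7 CPM while Lsm7 runs from 308 to 466 CPM, and Sf3b5 and Sf3b3 cross.

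In SF3a, the other U2 subcomplex, Sf3a2 stood at 39.3, 61.2 and 73.3 CPM, with log2 ratios of 0.63 (0.56 to 0.72) and 0.88 (0.82 to 0.98). It begins 2736 bases past the end of Dot1l on the same strand. Sf3a1 stood at 124, 105 and 138 CPM and Sf3a3 at 185, 174 and 171 CPM, so both stayed within 1.5-fold. U2af1, the small subunit that reads the AG at the intron's end, was higher at 3 h, at 537, 682 and 521 CPM. Its partner U2af2, which binds the polypyrimidine tract, was higher at 6 h, at 150, 137 and 199 CPM, with a ratio at 3 h (−0.12) that turned to 0.11 with median-of-ratios factors. From 3 h to 6 h the pair thus parted, with log2 ratios of −0.39 (−0.42 to −0.36) for U2af1 and 0.54 (0.48 to 0.60) for U2af2. The paralogue U2af1l4 lay with U2af1, at 35.2, 49.5 and 36.3 CPM.

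The Prpf genes were mostly lower at 3 h and closer to the control at 6 h. At 3 h 11 of 13 were lower, where 72.5% of all genes with at least 1 CPM and 75.6% of those with at least 10 CPM had a ratio below 0. The 13 had a median log2 ratio of −0.43, or −0.20 with median-of-ratios factors and −0.24 with TMM factors. Of the 11, Prpf38a (0.16) and Prpf6 (0.03) turned sign with median-of-ratios factors. At 6 h the median was −0.07 and 10 of 13 were lower, most by little, beside 59.8% and 63.8% of those genes. Prpf8, the scaffold of the U5 snRNP at the catalytic centre, stood at 169, 91.1 and 169 CPM. Its log2 ratio at 3 h was −0.89 (−0.95 to −0.84), and at 6 h it was −0.01 (−0.06 to 0.04). Between the treated libraries Prpf8 was 1.84-fold higher in the later one, the most of any member.

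Prpf4b, the spliceosomal kinase, followed the same order, at 160, 89.5 and 136 CPM. Prpf4 and Prpf3, proteins of the U4/U6 snRNP, stood at 94.6, 64.2 and 83.3 CPM and at 91.5, 69.0 and 87.3 CPM. They were lowest at 3 h as well. Prpf31, which bridges U4/U6 and U5, did not share this, at 90.8, 107 and 102 CPM, and neither did Prpf19, the ubiquitin ligase of the complex that bears its name, at 103, 130 and 113 CPM. The 5 tri-snRNP genes Prpf3, Prpf4, Prpf6, Prpf8 and Prpf31 spread over 2.19-fold at 3 h and 1.27-fold at 6 h. Prpf40b was the member with the fewest UMIs, 160 at 6 h, and its ratio at 6 h had a wide interval of −0.96 to −0.47.

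The LSm genes held 5 of the 7 ratios past 2-fold. Lsm8, the subunit that sets the nuclear U6 ring apart, had the lowest ratio of all members at both times. It stood at 55.6, 24.9 and 17.7 CPM, from 5834, 745 and 437 UMIs, and was lower by 2.18-fold at 3 h, then by 3.03-fold. The log2 ratios were −1.13 (−1.27 to −1.05) and −1.60 (−1.79 to −1.51). Lsm1, which takes the place of Lsm8 in the cytoplasmic decay ring, was lower too, at 79.3, 36.5 and 34.2 CPM, with log2 ratios of −1.10 and −1.19. Lsm8 lies at chr6:18848579-18855751 and Lsm1 at chr8:25785288-25803975 of mm10.

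Lsm5, a subunit of both rings, stood at 238, 142 and 102 CPM, with log2 ratios of −0.74 (−0.79 to −0.70) and −1.22 (−1.29 to −1.17). Lsm3, also in both rings, was lower at 145, 99.1 and 83.1 CPM, and its exons overlap those of another annotated gene on the same strand. The remaining shared subunits did not follow. Lsm7 was higher at both times, at 308, 444 and 466 CPM, with log2 ratios of 0.53 and 0.60. Lsm2 (250, 223 and 264 CPM), Lsm4 (378, 366 and 446 CPM) and Lsm6 (202, 188 and 220 CPM) each ended above the control, by 0.08 to 0.24 at 6 h. Lsm7 thereby gained 3.22-fold on Lsm8 at 3 h and 4.75-fold at 6 h. The standard deviation of the log2 ratio over the 7 genes of the nuclear ring was 0.55 at 3 h and 0.85 at 6 h. It was 0.41 and 0.30 over the 7 Sm genes, and 0.48 and 0.52 over all genes with at least 10 CPM. The values of the 2 rings were taken from ratios without the pseudocount and those of all genes from ratios with it, so they are not quite alike.

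Of the LSm genes outside these rings, Lsm10 and Lsm11 of the U7 snRNP were both lower at 6 h, at 28.3, 22.8 and 16.8 CPM and at 17.3, 11.1 and 9.72 CPM. Lsm14a and Lsm14b were lower at both times, with log2 ratios of −0.34 and −0.63 at 6 h. Lsm12 was higher at both, at 149, 193 and 194 CPM. The median of the 13 LSm genes was −0.44 at 3 h and −0.63 at 6 h, yet their summed UMIs differed from the control by only −0.10 and −0.01. In that sum the higher Lsm7 stood against the lower Lsm5 and Lsm3. The summed log2 ratio at 3 h turned to 0.14 with median-of-ratios factors.

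At 3 h 17 of 20 hnRNP genes had a ratio below 0, as did 72.5% of all genes with at least 1 CPM. Their median log2 ratio was −0.22, which became 0.01 with median-of-ratios factors and −0.03 with TMM factors. At 6 h 9 were higher and 11 lower, with a median of −0.00, where 59.8% of all genes with at least 1 CPM had a ratio below 0. Hnrnpu, a large nuclear-matrix-associated hnRNP, stood at 985, 575 and 995 CPM. It was lower at 3 h by −0.77 (−0.80 to −0.75) and at the control level at 6 h (0.01, −0.01 to 0.03), the same order as Prpf8. Hnrnpa3 (782, 562 and 781 CPM) and Hnrnph2 (95.1, 71.9 and 94.6 CPM) likewise stood at the control level again at 6 h. Hnrnpd (435, 383 and 545 CPM) and Hnrnpm (441, 376 and 539 CPM) ended above it, by 0.32 and 0.29, and the Hnrnpm exons overlap those of March2 on the same strand.

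Other hnRNP genes stayed lower at 6 h. Hnrnpf, a binder of G-rich RNA, stood at 716, 446 and 463 CPM, with log2 ratios of −0.68 and −0.63. Hnrnpk, a poly(C) binder, stood at 574, 382 and 359 CPM, with log2 ratios of −0.59 and −0.68. All 4 F/H genes and all 5 A/B genes had a CPM ratio below 0 at 6 h, but Hnrnpa3 (0.01) and Hnrnph2 (0.01) turned sign with median-of-ratios factors. Most genes were below 0 at that time, 59.8% of those with at least 1 CPM and 63.8% of those with at least 10 CPM. Hnrnpa2b1 was lower at 6 h than at 3 h, at 599, 547 and 446 CPM. Hnrnpdl, whose mRNA is known to carry alternative exons under control of its own protein, was the highest of the family at both times, at 166, 240 and 226 CPM. Its relative Hnrnpd was at −0.19 at 3 h, or 0.06 with median-of-ratios factors, where Hnrnpdl was higher (0.53).

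From 3 h to 6 h, 37 members (52.9%) were higher and 33 lower, where 67.0% of all genes with at least 1 CPM were higher. Of the 37, 13 changed sign under the 4 scalings to a total. The 33 lower members could not change sign, because each alternative to CPM moved the ratios down. It moved the median of genes with at least 1 CPM by −0.007 (no mitochondrial genes), −0.198 (median-of-ratios) and −0.195 (TMM). The median log2 ratio was 0.03, beside 0.14 for the genes with at least 10 CPM, and it turned to −0.19 with median-of-ratios or TMM factors. At the smaller rule of 1.5-fold, 6 members were higher, among them Prpf8, Hnrnpu, Snrpd3, Snrpf and Prpf4b, and Sf3b5 was lower, or 8.57% and 1.43%. The backgrounds at 1.5-fold among genes with at least 1 CPM were 11.3% higher and 1.79% lower, and with at least 10 CPM 7.62% and 1.7%. This balance turned with the scaling: with median-of-ratios factors only Prpf8 (0.66) was 1.5-fold higher and 10 members were 1.5-fold lower, against 5.54% and 5.78% of genes with at least 1 CPM and 2.43% and 6.17% with at least 10 CPM. The 10 were Sf3b5, Sf3b4, Lsm5, Lsm8, Lsm10, U2af1, U2af1l4, Snrpc, Snrpn and Snrpa, and with TMM factors 1 was higher and 9 lower. UMIs per cell are CPM times a constant of each library, so they order the ratios as CPM do and are not a second observation. On that scale the 6 genes higher in CPM had more at 6 h than at 3 h. Hnrnpu had 7.27 and then 8.39 per cell, Prpf8 1.15 and then 1.42. How many of all genes had more per cell was not counted. Their median log2 ratio per cell was −0.25 for those with at least 1 CPM, beside −0.52 for the members. The other 64 members had fewer.

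Length went with this comparison. Across the 70 members the ratio of 6 h to 3 h had a Spearman rho of 0.53 with the length of the longest coding transcript, 0.42 with the span of the gene and 0.34 with the number of exons. Across the 8158 genes with at least 10 CPM the values were 0.37, 0.40 and 0.35. The ratio of 3 h to control had a rho of −0.32 with transcript length among members and −0.24 among those genes. These are descriptions across genes that share the same libraries, and genes are not replicates. Members in the third with the longest spans, 21524 to 157725 bases, had a median of 0.32 from 3 h to 6 h, beside 0.22 for all genes of such spans, and those of 1962 to 9267 bases had −0.07, beside −0.03. Prpf8, with a transcript of 7442 bases and 42 exons, and Hnrnpu, with 7640 bases and 14 exons, lay at the long end. Sf3b5 has a single exon, but its transcript of 3841 bases is longer than the members' median of 2670.5, so it lay against the trend with transcript length.

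**Figure D4:**
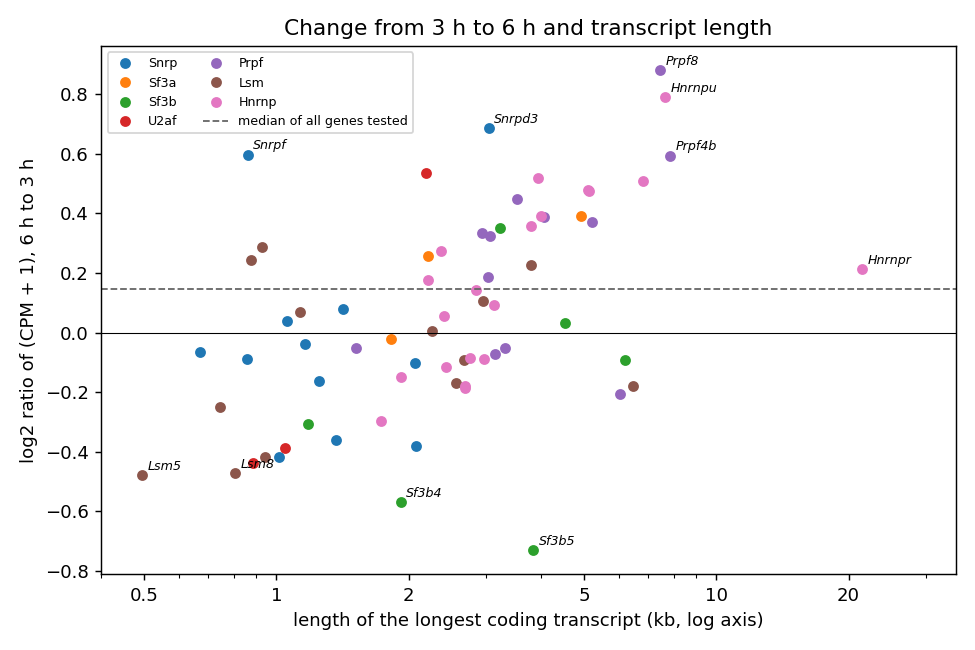
Each point is one of the members described here, with the length of its longest coding transcript in kilobases on a log x axis and the log2 ratio of the 6 h to the 3 h library on the y axis, coloured by name family, and a dashed line at the median of all genes with at least 1 CPM. Prpf8 (0.88) and Hnrnpu (0.79) lie high among the long transcripts, and Sf3b5 (−0.73) lies lowest.

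At the smaller rule of 1.5-fold against the control, 4 members were higher and 11 lower at 3 h, or 5.71% and 15.7%, against 4.24% and 26% of all genes with at least 1 CPM and 2.5% and 27.5% of those with at least 10 CPM. At 6 h 4 were higher and 12 lower, or 5.71% and 17.1%, against 9.36% and 18.5%, and 5.16% and 19.8%. The counts at 3 h became 9 higher and 5 lower with median-of-ratios factors, against 9.08% and 14.1% of all genes with at least 1 CPM, and those at 6 h were again 4 and 12. In CPM Sf3a2, Sf3b3 and Snrpd2 were among the higher at both times, with Snrpa at 3 h and Lsm7 at 6 h. Under 4 ways of scaling to a total (all UMIs, UMIs without mitochondrial genes, median-of-ratios and TMM factors), 22 members kept a ratio above 0 and 30 below 0 at 3 h, and 18 changed sign. Each alternative to all UMIs moved ratios up at 3 h, so the 22 could not change sign. The median of genes with at least 1 CPM moved by 0.005, 0.209 and 0.168 there. At 6 h 29 members kept a ratio above 0, 35 below 0 and 6 changed sign.

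Within single cells the families' shares of UMIs were compared as medians over cells, which carry no test. The Snrp share was 0.548% (control), 0.628% (3 h) and 0.653% (6 h). The Prpf share was 0.143%, 0.102% and 0.129%, the Hnrnp share 0.746%, 0.592% and 0.667%, and the Lsm share 0.195%, 0.179% and 0.188%. The Prpf, Hnrnp and Lsm shares were each lowest at 3 h in the median cell. Summed over cells, the log2 ratio of 6 h to 3 h was 0.22 for Hnrnp but −0.01 with median-of-ratios factors, and 0.35 for Prpf, or 0.13 with those factors. The quartiles of control cells lay at 0.503% and 0.595% for Snrp, and those of cells at 6 h at 0.559% and 0.742%. The wider range at 6 h was measured in cells with a median of 52 Snrp UMIs, against 269 in the control.

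**Figure D5:**
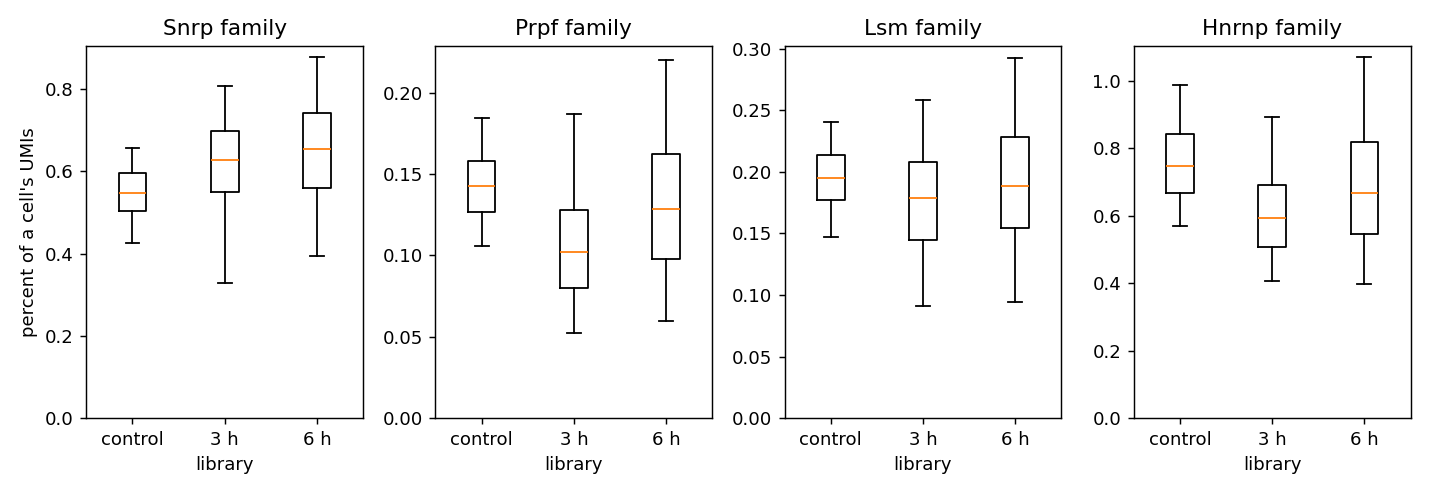
Boxes give the percent of a cell's UMIs from the genes of each name family in the 3 libraries, with the median, quartiles and whiskers at the 5th and 95th percentiles of cells. The Snrp boxes lie higher after treatment (medians 0.548%, 0.628% and 0.653%), and the medians of the Prpf, Lsm and Hnrnp boxes are lowest at 3 h.

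In UMIs per cell every member was lower after treatment, in contrast to the shares. The typical gene was far lower on that scale too. The median log2 ratio of all genes with at least 1 CPM was −1.92 at 3 h and −2.23 at 6 h, beside −2.18 and −2.58 for the members. A control cell held on average 986 UMIs of the 70 genes, a 3 h cell 229 and a 6 h cell 165. The log2 ratio per cell was −1.13 for Sf3b3 at 3 h, the highest there, and −3.86 for Lsm8 at 6 h, the lowest of either time. The median UMIs of a cell over all genes were lower too (48452, 11877 and 8004.5), and sequencing depth and RNA per cell cannot be told apart in these counts.

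Other genes of the splicing pathway, 121 in 7 lists chosen by function and each with at least 1 CPM in the control, showed the same mixture. At 3 h none was 2-fold higher and 3 were 2-fold lower, against 0.989% and 6.35% of all genes with at least 1 CPM. At 6 h none was 2-fold higher and 4 were 2-fold lower, against 3.29% and 5.25%. In both directions these were fewer in proportion than the background. The lower genes at 3 h were Ddx20 (−1.22), the helicase of the SMN complex that loads Sm rings, Coprs (−1.14), a partner of Prmt5, and Rbmx2 (−1.01), a protein of the activated spliceosome. At 6 h they were Rbmx2 (−1.37), Ddx20 (−1.22), Gemin6 (−1.16), also of the SMN complex, and Sap18 (−1.16). The list of Sm assembly factors had medians of −0.35 and −0.34 over 17 genes, the lowest of the 7 lists at both times, although Prmt5, which methylates Sm proteins, was higher (82.4, 108 and 132 CPM).

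Among the other U snRNP proteins, 24 genes with medians of −0.15 at 3 h and 0.07 at 6 h, Snrnp200, the U5 helicase that works beside Prpf8, stood at 166, 95.3 and 163 CPM. It was the lowest of its list at 3 h and near the control at 6 h, the order seen in Prpf8. Snu13 stood at 479, 564 and 515 CPM, Sart3, which recycles U6, at 64.5, 65.6 and 96.3 CPM, and Pdcd7 of the minor spliceosome at 47.6, 30.8 and 32.8 CPM. The partners of Lsm1 in mRNA decay, 8 genes, had medians of −0.23 and −0.01, so the low level of Lsm1 at 6 h was not shared by their median. Their ends at 6 h were Xrn1, the exonuclease, at 0.22, and Dcp1b at −0.66, and Edc3 was nearest to the control at 3 h, at −0.07.

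The early assembly list of 11 genes had medians of −0.19 and −0.02, with Puf60, a U2AF-related factor, higher at both times (0.66 and 0.67). The list of the Prp19 complex and the catalytic steps, 23 genes, had medians of −0.23 and −0.04. In it Xab2 was higher (0.80 and 0.71), Cdc40 lowest at 3 h (−0.98) and Cwc15 lowest at 6 h (−0.72). The exon junction complex, 8 genes, had medians of −0.10 and −0.06, with Casc3 at −0.70 and Rbm8a at 0.06 at 3 h, and Sap18 and Acin1 (0.45) as its ends at 6 h. In the 30 other hnRNP-like genes, with medians of −0.22 and −0.27, the ends were Pcbp4 (0.91 and 0.93), Cirbp (−0.68 at 3 h) and Mbnl2 (−0.53 at 6 h). Gemin4 had the highest ratio of the Sm assembly list at 6 h (0.95), but from 1.28 CPM in the control.

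The symbol Lsmem1, which the name rule catches without its being an LSm gene, fell below the minimum and was not counted with the members. It stood at 0.191, 13.3 and 13.2 CPM, from 20, 398 and 326 UMIs. It begins 2076 bases past the end of Ifrd1 on the same strand, which stood at 98.0, 84.4 and 48.0 CPM. Whether the Lsmem1 UMIs come from transcripts that begin at Ifrd1 was not tested. Lsmem2 stood at 0.219, 0.569 and 0.446 CPM.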

How the data were processed

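Single-cell RNA was measured in 3 libraries, 1 per condition. The authors deposited raw UMI counts per gene and barcode with no cell filter, made with Cell Ranger 7.1.0 on mm10, per the submitters' processing notes. The annotation and the treatment of intronic reads are not given in the sources used here, and counts are per 3′ end, so CPM were not divided by length and levels were not compared between genes.

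Cells were barcodes whose UMIs reached 1/10 of the 99th percentile among the 3000 largest, with 500 genes or more and no more than 20% of UMIs mitochondrial, which set limits of 11033, 2961 and 2107 UMIs. Doublets were kept and no caller was run. UMIs were summed over cells, scaled to CPM and compared as log2(CPM + 1) ratios. Intervals are exact conditional binomial intervals of the ratio without the pseudocount. A count of 0 allows up to 0.0286, 0.100 and 0.122 CPM in the 3 libraries (3 counts). Alternatives changed the cell limits, scaling, cell weights, pseudocount, expression minimum and free RNA. TMM factors came from edgeR 4.0.16 in R 4.3.3, and other steps used scipy 1.17.1, pandas 2.3.3, numpy 2.4.6 and matplotlib 3.10.9 in Python 3.11.15. The ratios and intervals were tested on simulated counts. Gene models were from GENCODE M21 (GRCm38, the same assembly as mm10) and matched 32235 of 32285 identifiers. No protein sequences were used here, and the values of 1 member, which is counted in the totals, are not reported here.

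The genes and the lists of related genes were chosen with earlier results of these data known. Named were members past 2-fold, the extremes and the highest control level of each family, all Sm ring, Sf3b and U2AF genes, the genes nearest the 1 CPM limit, and the extremes of each related list. The other members, and Coprs and Gemin6 as genes past 2-fold, were named by role after their values were seen.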

Additional observations from a re-analysis of the deposited data

Results flagged for a closer look

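Of the 70 members, 8 lay on opposite sides of the control at 3 h and 6 h under all 4 scalings to a total. In CPM each did so beyond counting error. How many of all genes did so was not counted, so this is not shown to be particular to the members. Of all genes with at least 1 CPM, 27.5% had a ratio above 0 at 3 h and 40.2% at 6 h. In CPM Hnrnpd and Hnrnpm, among others, also lay on opposite sides beyond counting error, but turned sign at 3 h with median-of-ratios factors. The 8 are thus those whose signs held under the 3 other scalings to a total, where counting error was not weighed. That agreement is the rule of choice, not support. At 3 h those scalings moved ratios up, so members above 0 there could not change sign. The difference between the times was not tested. Snrpd3 had log2 ratios of −0.39 and 0.29, Snrpf of −0.40 and 0.20, and Sf3a1 of −0.24 and 0.15, each lower first and higher later, although Sf3a1 at 3 h was at −0.0046 with median-of-ratios factors, well within the width of its counting interval. The reverse order was seen in U2af1 (0.34 and −0.04), Sf3b4 (0.11 and −0.45), Snrpc (0.21 and −0.21), Snrpn (0.25 and −0.13) and Hnrnpa0 (0.11 and −0.07). Low-UMI barcodes from below the cell limits, taken to hold mostly free RNA, drew 1.67% of their UMIs from the 70 genes at 3 h and 1.61% at 6 h, above the 1.503% of the control. In cells the shares were 1.81% (3 h), 1.96% (6 h) and 1.91% (control).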

How the results depend on the processing

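No paired analysis was possible because each condition had 1 library and the labels give no replicate numbers. The count of members 2-fold lower at 3 h was 3 and became 0 with median-of-ratios and TMM factors, 70 in UMIs per cell and 11 at 1.5-fold, which was chosen after seeing the data. The count 2-fold higher at 3 h was 0 and became 1 with median-of-ratios factors, TMM factors, equal weight for each cell or no expression minimum, and 4 at 1.5-fold. The median at 3 h became 0.0412, −0.0074 and −2.18 with median-of-ratios factors, TMM factors and UMIs per cell. In UMIs per cell the median of all genes with at least 1 CPM was −1.92 at 3 h and −2.23 at 6 h. At 6 h the 4 lower members became 70 in UMIs per cell and 12 at 1.5-fold, the higher ones 1 without a minimum and 4 at 1.5-fold, and the median −2.58 in UMIs per cell. From 3 h to 6 h the median became −0.19 with median-of-ratios and with TMM factors, −0.52 in UMIs per cell and −0.0261 with equal weight. There 3 members were 2-fold lower in UMIs per cell, and 6 were higher and 1 lower at 1.5-fold. With the 1.5-fold rule and median-of-ratios factors together, also chosen after seeing the data, 9 were higher and 5 lower at 3 h, 4 and 12 at 6 h, and 1 and 10 from 3 h to 6 h, and with TMM factors 7 and 5, 3 and 12, and 1 and 9. The extra genes without a minimum are explained by construction: Lsmem1 then counts. Of 7 ratios past 2-fold, 4 stayed so with median-of-ratios or TMM factors, and 6 with equal weight or with free RNA subtracted at 10%. Doubling or halving the UMI minimum, 10% as the mitochondrial limit, leaving out cells above 2 times the median, a pseudocount of 0.1 CPM and a total without mitochondrial genes left all 7 past 2-fold. Counting error was small, with median interval widths of 0.09 and 0.10 at 3 h and 6 h. These widths do not measure variation between libraries, which is unknown with 1 library per condition. Median-of-ratios factors moved single named ratios by up to 0.24.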
